A study of Homo sapiens with 18 samples.

Results

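Gene expression was compared between the replicate numbers of a compound experiment in HepG2 cells, with the treatment held constant. Each of 6 treatments was sequenced 3 times, and the sample titles number these libraries 1, 2 and 3. The comparison set the 6 libraries with each number against the 6 libraries with each other number, 1 per treatment, and used 18 of the 18 libraries of the series. The titles do not say whether a number stands for a shared culture, day or sequencing batch, so the numbers are called replicate numbers throughout. A number has no replicate of its own, and the p-values measure the spread between these libraries, which may be technical.

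HepG2 is an established human liver tumour line that keeps much of the secretory and metabolic program of hepatocytes. The series title names the nuclear receptor LRH-1 as the target of the compounds. The 6 groups were the vehicles DMSO (0.1%) and ethanol (0.1%), the compounds 6N, 10CA and 6N-10CA, each given at 10 µM, and DLPC, a phospholipid given at 100 µM. All cells were grown in DMEM with fetal bovine serum, and all groups, vehicles included, were in medium with charcoal-stripped serum during the experiment. RNA was converted to amplified cDNA, made into Nextera XT libraries and read on a NovaSeq. How long the cells were treated, and whether counting used strand, is not given in the sources used here. The counts of overlapping and antisense genes therefore cannot be told apart.

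Hepatocytes make most plasma proteins and lipoproteins, and they switch between storing and releasing glucose under the control of insulin and fasting signals. Growing cells divert resources to DNA replication, ribosome assembly and protein folding, and these programs are controlled together by nutrients, growth factors and stress.

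Total counts ran from 28135967 to 34992442 per library. Their means were 31358700, 31390300 and 30180600 for the numbers 1, 2 and 3, with an exact permutation p of 0.612 (two-sided, 46656 arrangements within treatments). The number of genes detected was also close, with means of 18990, 19006 and 18926 (exact permutation p = 0.637, 0.637 after adjustment over both measures). The composition of the libraries moved with the number and was not tested as a whole. Ribosomal protein genes took 2.78% ± 0.08, 2.59% ± 0.08 and 2.69% ± 0.10 of the counts (SD, n = 6 each), the 10 highest genes took 10.0% ± 0.25, 9.48% ± 0.35 and 9.88% ± 0.22, and mitochondrial genes took 0.45% ± 0.04, 0.43% ± 0.02 and 0.42% ± 0.02. The HepG2 label was borne out by liver genes, with albumin (ALB) at 8260 to 10340 CPM (counts scaled to the library's total) and alpha-fetoprotein (AFP) at 10760 to 12910 CPM in every library. Of 22 markers of stromal, endothelial and blood cells, 9 passed the filter on low counts, 5 were at 0 in all 18 libraries (KDR, TEK, MS4A1, HBB and PPBP), and their summed level was 511 to 643 CPM in number 1, 508 to 576 in number 2 and 481 to 621 in number 3. Most of that sum was LYZ (lysozyme, 251 to 387 CPM). In bulk libraries, fewer cells of a kind and less RNA per cell cannot be told apart.

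Between number 2 and number 1, 3879 of 14797 genes tested were called (26.2%) by edgeR's quasi-likelihood test at an adjusted p under 0.05. Of these, 1964 were higher in number 2 (13.3% of genes tested) and 1915 were lower (12.9%). Between number 3 and number 1, 1418 genes were called (9.58%), 841 higher (5.68%) and 577 lower (3.9%). With upper-quartile scaling this split became 750 higher and 802 lower. Between number 3 and number 2, 1854 genes were called (12.5%), 956 higher (6.46%) and 898 lower (6.07%). A difference among the numbers was called for 4171 genes (28.2%). The count for number 3 against number 1 depended on single libraries and fell to 807 without 10CA replicate 1, 886 without 6N-10CA replicate 1, 904 without 6N-10CA replicate 3 and 928 without 6N replicate 3.

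Most called differences were small and had the same sign in all 6 treatments. The median absolute log2 fold change of the called genes was 0.16 for number 2 against 1, 0.18 for 3 against 1 and 0.15 for 3 against 2, and 26, 11 and 16 of them exceeded 2-fold. Of the 3879 genes called between number 2 and number 1, 1438 were higher and 1459 were lower in all 6 treatments. For number 3 against 1 these counts were 663 and 453, and for number 3 against 2 they were 745 and 717. The fit with treatment as a factor favours genes whose differences have the same sign across treatments. These counts therefore do not test whether the treatments share the differences, and the share among all genes tested is not given here. The biological coefficient of variation, edgeR's measure of spread between libraries beyond counting error, was 6.96% when the fit held treatment alone and 4.42% when it held the replicate number as well.

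The ordering of the 3 numbers was uneven. Among the 4171 called genes, 1417 (34%) were highest in number 1 and lowest in number 2, and 1148 (27.5%) were highest in number 2 and lowest in number 1. Number 3 lay between the others for both of these sets. It was highest for 555 genes in the order 3, 2, 1 and for 296 in the order 3, 1, 2. It was lowest for 476 genes in the order 2, 1, 3 and for 279 in the order 1, 2, 3.

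After the treatment means were taken out, the deviations of each library were correlated with those of libraries of the other treatments. The mean correlation was highest with the libraries of its own number for 18 of 18 libraries. The median correlation across genes was 0.31 for 45 pairs with the same number (-0.01 to 0.59) and -0.13 for 90 pairs with different numbers (-0.50 to 0.10). These are correlations across genes, which are not independent replicates. The 3 deviations of a treatment sum to 0, so positive correlations within numbers bring negative ones between numbers, which are no separate result. In a principal component analysis of the deviations, the first component (31.1% of the variance) set the libraries numbered 1 apart from those numbered 2, and the second (14.8%) set those numbered 3 apart from the rest. The plot of these components shows 3 groups of 6 that do not overlap.

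**Figure D1:**
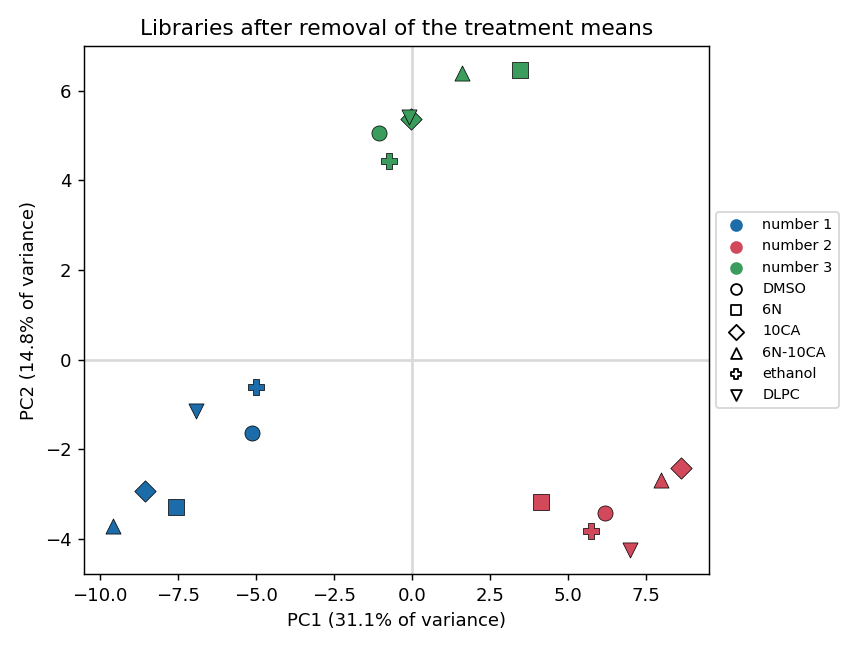
Principal components of log2 CPM after subtraction of each treatment's mean, with 1 point per library, colour for the replicate number and shape for the treatment. The first component (x axis, 31.1% of the variance) separates number 1 from number 2, and the second (y axis, 14.8%) separates number 3 from both.

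The pattern could be compared in separate sets of libraries, because the small molecule arm (DMSO, 6N, 10CA and 6N-10CA, 12 libraries) and the phospholipid arm (ethanol and DLPC, 6 libraries) share none. For number 2 against 1, 3153 of the 14106 genes tested in both arms were called in the small molecule arm (22.4%) and 1149 in the phospholipid arm (8.15%). Of these, 840 were called in both arms, 839 of them in the same direction, which is 26.6% of the first set and 73.1% of the second. For number 3 against 1, 1331 genes (9.44%) and 162 genes (1.15%) were called, 102 in both arms and 101 of these in the same direction (7.66% and 63%). For number 3 against 2, 1021 genes (7.24%) and 831 genes (5.89%) were called, 326 in both arms and 325 of these in the same direction (31.9% and 39.2%). Of the genes called in the small molecule arm for number 2 against 1, 91.9% had the same sign in the phospholipid arm, beside 70.3% of all genes tested in both.

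Functions of the cell were read from 42 gene lists, 41 of which had members in the table. The share of members called in each direction is plotted for every list, and the deviation of each list is plotted by library. Number 2 was set apart from both other numbers by higher p53 targets, chaperones, ribosome biogenesis and DNA replication genes. The p53 targets and chaperones also had more members higher than lower in number 3 against number 1. Number 2 was also set apart by lower lipoproteins, coagulation and complement factors and part of the list of glucose production genes and ChREBP targets. Number 3 was set apart by higher immediate early genes.

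**Figure D2:**
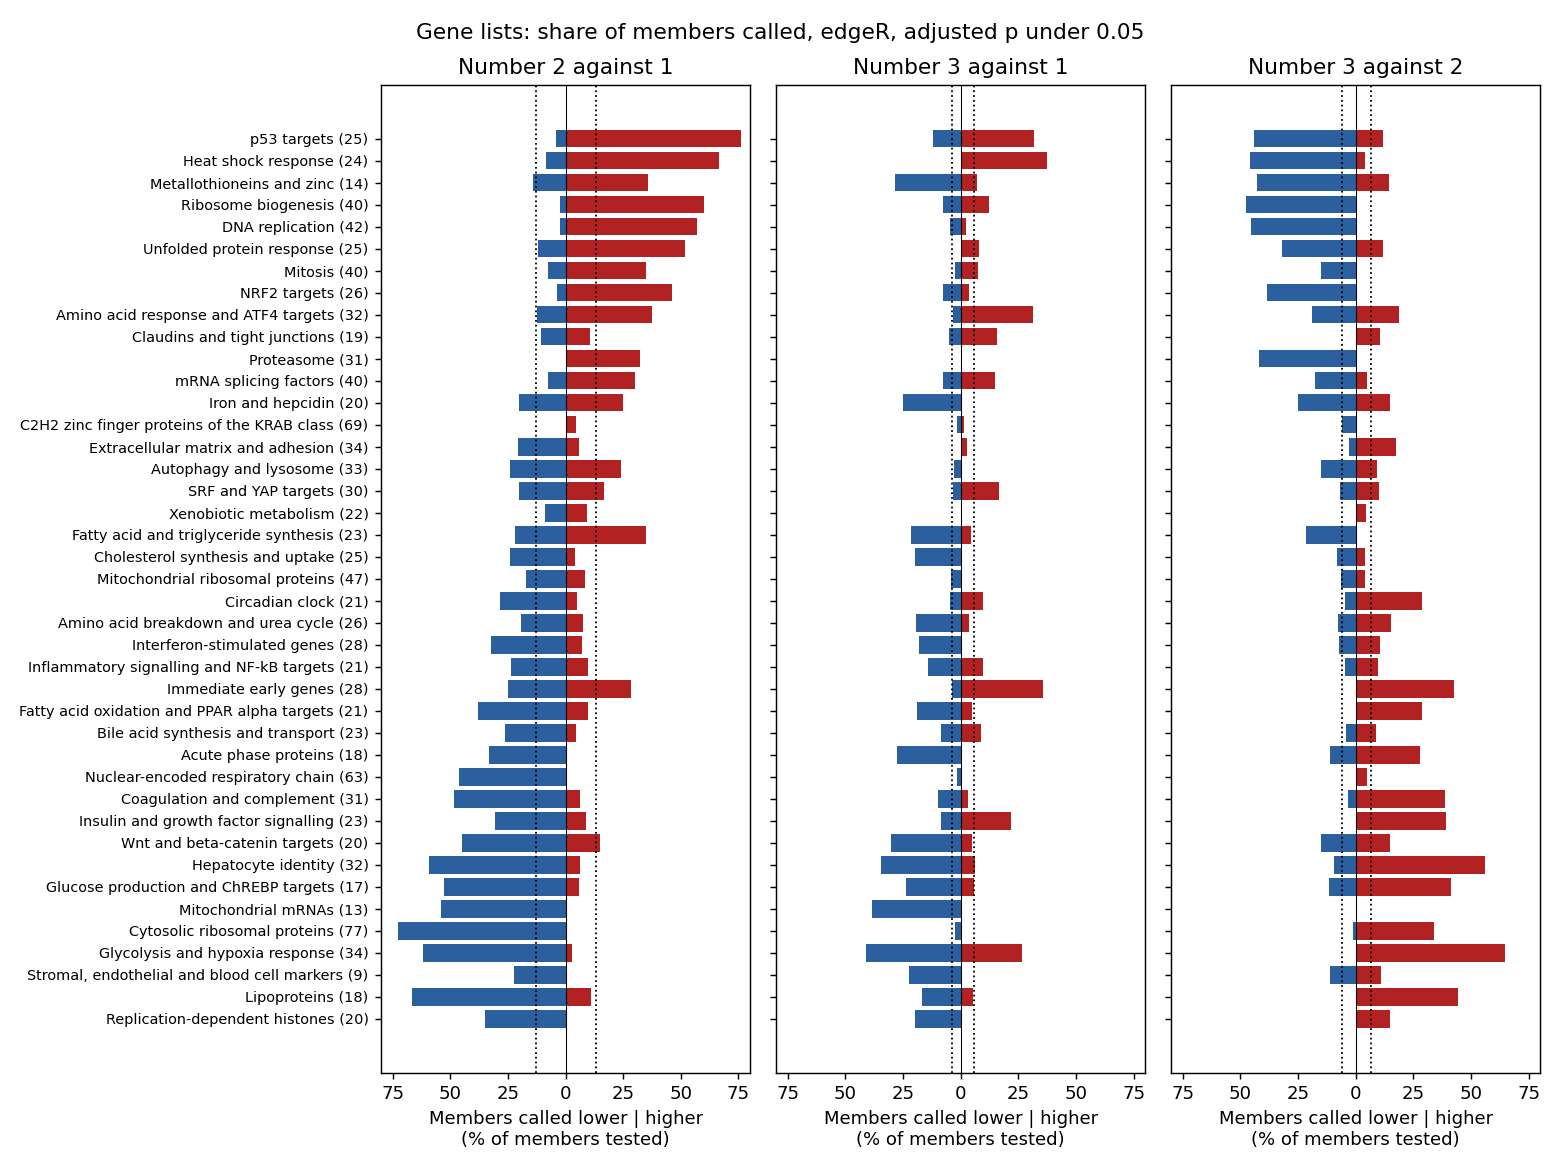
Share of the tested members of each gene list (number tested in parentheses) called higher (red, to the right) or lower (blue, to the left) in each comparison, in percent, with dotted lines at the share of all genes tested called in that direction (13.3% and 12.9%, 5.68% and 3.9%, 6.46% and 6.07%). In number 2 against 1, p53 targets extend farthest to the right and cytosolic ribosomal proteins farthest to the left.

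**Figure D3:**
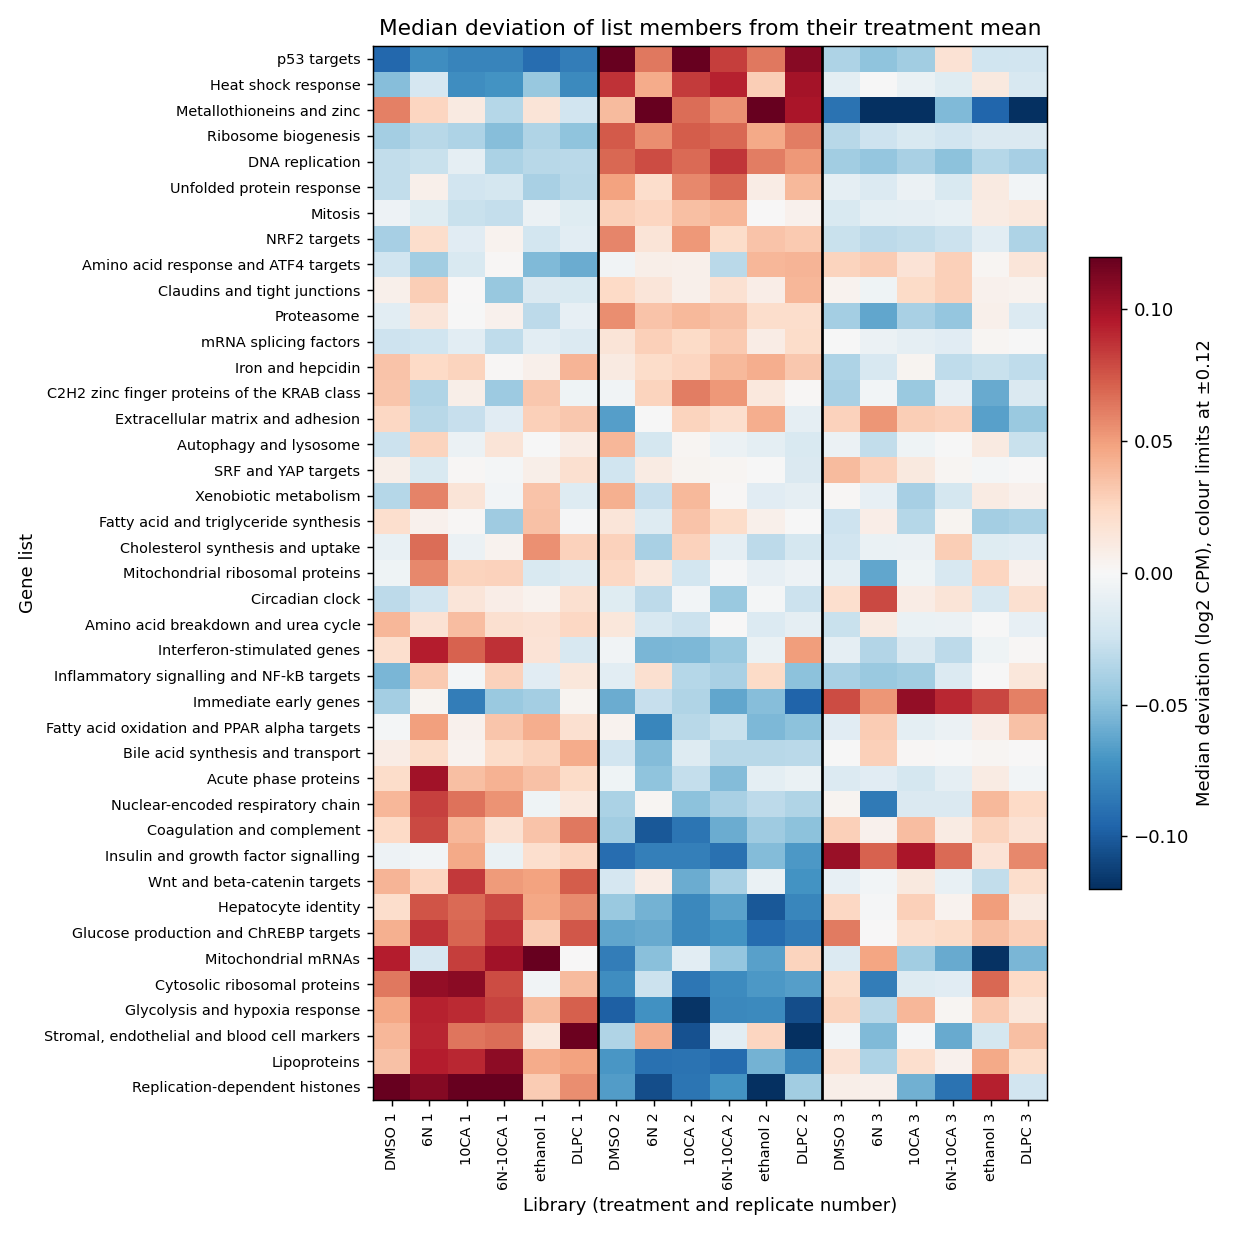
Median over list members of the deviation of log2 CPM from the treatment mean (colour, limits at ±0.12) for each gene list (rows) in each of the 18 libraries (columns, ordered by replicate number). The heat shock and p53 rows are red in all 6 libraries numbered 2, and the lipoprotein row is blue in the same 6 libraries.

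Transcript composition moved with the replicate number, and its part in the results was not tested beyond the correction given here. Over 10296 genes above 5 CPM with a known transcript, the log2 fold change had a Spearman correlation with GC content of -0.391 for number 2 against 1, -0.409 for 3 against 1 and 0.127 for 3 against 2. Of 5 equal classes of genes by GC, the lowest had a median log2 fold change of 0.07 for number 2 against 1 and the highest had -0.07. Length had correlations of 0.101, 0.102 and -0.04. An alternative fit with an offset for GC and length, added after the data were seen, called 3466, 1226 and 2140 genes in the same order, of which 2676, 888 and 1722 were also called without it. Of the 3740 genes called for number 2 against 1 that entered that fit, 3718 kept their sign. List counts under this correction are given beside those without it for the lists and comparisons where the text names it.

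**Figure D4:**
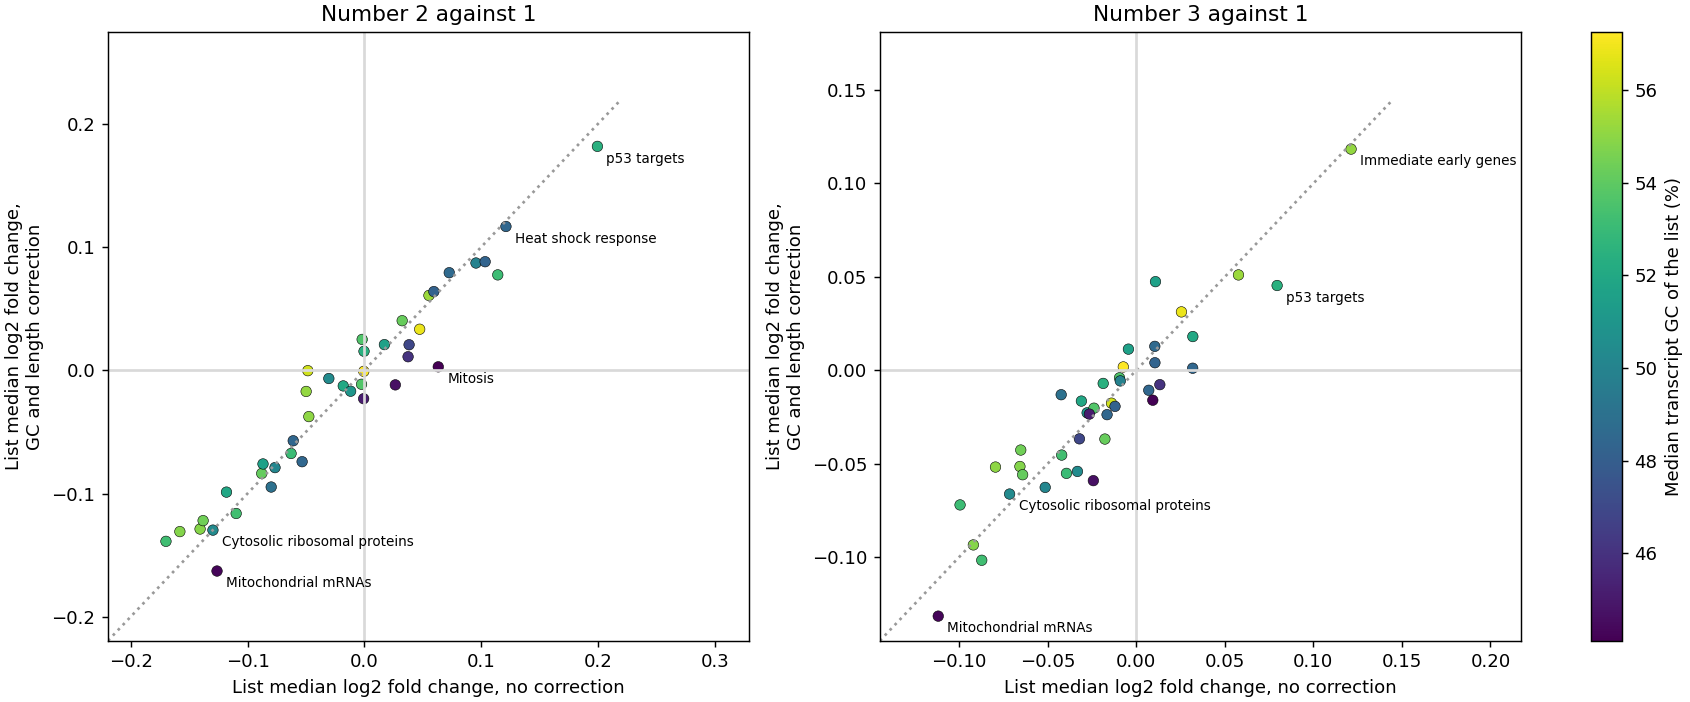
Median log2 fold change of each gene list without correction (x axis) and with the GC and length correction (y axis) for number 2 against 1 (left) and number 3 against 1 (right), 1 point per list, coloured by the median GC content of the transcripts of its members in percent. Points lie along the dotted line of equality, and the mitosis list moves from 0.06 to 0.00 in the left panel.

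IGFBP1, PCK1 and G6PC, of the list of glucose production genes and ChREBP targets, were lower in number 2 than in number 1. IGFBP1 encodes a secreted binder of insulin-like growth factors that insulin represses (chromosome 7, 45888357 to 45893668 on GRCh38). Its level ran from 117 to 294 CPM (median 127) in the libraries numbered 1, from 51.8 to 122 (median 78.2) in those numbered 2 and from 111 to 276 (median 142) in those numbered 3. The highest library in each number was DLPC, and the ranges overlap, but in every treatment the library numbered 2 was the lowest of the 3. The log2 fold change was -0.95 ± 0.07 (SE) for number 2 against 1 (edgeR adjusted p = 1.81e-08) and 0.96 ± 0.07 for number 3 against 2 (edgeR adjusted p = 5.85e-08). Number 3 against 1 differed by 0.01 with a 95% interval of -0.14 to 0.16.

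PCK1 encodes the cytosolic phosphoenolpyruvate carboxykinase, a rate-controlling enzyme of gluconeogenesis (chromosome 20, 57561080 to 57568112). It ran from 9.38 to 21 CPM (median 13.4) in the libraries numbered 1, from 4.63 to 10.9 (median 6.54) in those numbered 2 and from 8.67 to 18 (median 10.3) in those numbered 3. The ranges overlap, with DLPC and 6N-10CA the highest libraries in each number, whereas the differences within a treatment were of 1 sign, from -1.16 to -0.86 on the log2 scale for number 2 against 1. The fitted log2 fold change was -0.99 ± 0.07 (SE, edgeR adjusted p = 4.32e-09). G6PC, the catalytic subunit of glucose-6-phosphatase (chromosome 17, 42900797 to 42913369), ran from 23.1 to 53.7 CPM (median 34) in the libraries numbered 1, from 14.6 to 29.3 (median 19.8) in those numbered 2 and from 20.3 to 41.5 (median 28.9) in those numbered 3. It fell by 0.75 on the log2 scale between number 1 and number 2 (SE 0.06, edgeR adjusted p = 5.23e-08), and number 3 lay between the others.

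HAL encodes histidine ammonia-lyase, the first enzyme of histidine breakdown. It ran from 17.7 to 36.5 CPM (median 19.8) in the libraries numbered 1, from 6.64 to 14.5 (median 9.68) in those numbered 2 and from 14 to 29.1 (median 16.4) in those numbered 3, so that no library numbered 2 reached the lowest library numbered 1. Its log2 fold change was -1.16 ± 0.08 for number 2 against 1 (edgeR adjusted p = 6.79e-09). GAST, the gastrin gene, ran from 33.9 to 58.2 CPM (median 50.1) in the libraries numbered 1, from 13.2 to 32.5 (median 27.5) in those numbered 2 and from 19.2 to 54.3 (median 43.6) in those numbered 3. Numbers 1 and 2 again did not overlap, with a log2 fold change of -0.96 ± 0.06 (edgeR adjusted p = 3.00e-09). TXNIP encodes a redox and glucose uptake regulator that rises with glucose. It ran from 129.9 to 147 CPM (median 140.2) in the libraries numbered 1, from 101 to 122 (median 109) in those numbered 2 and from 102 to 119 (median 113) in those numbered 3, which places number 1 above every library of both other numbers (log2 fold changes -0.35 and -0.31, edgeR adjusted p = 1.38e-08 and 1.16e-07).

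Across the list of glucose production genes and ChREBP targets, 17 of 20 members passed the filter. For number 2 against 1, 9 were lower and 1 was higher, with a median log2 fold change of -0.12 beside 0.00 over all genes tested. For number 3 against 2, 7 were higher and 2 were lower. The list of insulin and growth factor signalling had 23 of 24 members tested, with 7 lower and 2 higher in number 2 than in number 1, and 9 higher and 0 lower in number 3 than in number 2 (median 0.12). IGF2, the fetal growth factor made by liver tumour cells, ran from 2046 to 2774 CPM (median 2144) in the libraries numbered 1, from 1342 to 1752 (median 1627) in those numbered 2 and from 1718 to 2265 (median 1998) in those numbered 3. No library numbered 2 reached the lowest library numbered 1, with a log2 fold change of -0.49 ± 0.04 (edgeR adjusted p = 1.30e-07). IGF2 forms a read-through transcript with the insulin gene, so its counts are uncertain where reads could be shared.

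The wider list of glycolysis and the hypoxia response had all of its 34 members tested. Of these, 21 were lower and 1 was higher in number 2 than in number 1 (median -0.14), and 22 were higher and 0 lower in number 3 than in number 2 (median 0.11). NDRG1, a growth arrest gene induced by hypoxia, ran from 159.5 to 224 CPM (median 193) in the libraries numbered 1, from 122 to 177 (median 139) in those numbered 2 and from 158 to 206 (median 177) in those numbered 3. Its ranges overlap, and its log2 fold change was -0.40 ± 0.03 for number 2 against 1 (edgeR adjusted p = 5.66e-08). PFKFB4, a bifunctional kinase and phosphatase that sets the level of a glycolytic activator, ran from 157 to 228 CPM (median 168) in the libraries numbered 1, from 106 to 169 (median 119.8) in those numbered 2 and from 120.2 to 181 (median 141) in those numbered 3. Its ranges overlap, and number 2 differed from number 1 by -0.68 to -0.42 on the log2 scale in the 6 treatments (fit -0.48 ± 0.04, edgeR adjusted p = 1.14e-08).

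A paralogue of the same enzyme family went the other way and marked number 3. PFKFB3 (chromosome 10, 6144934 to 6254644) ran from 14.2 to 21 CPM (median 15.6) in the libraries numbered 1, from 16.5 to 26 (median 22.4) in those numbered 2 and from 32.3 to 45.1 (median 39.2) in those numbered 3. Every library numbered 3 was above every library of the other numbers. The log2 fold change was 1.20 ± 0.07 for number 3 against 1 (edgeR adjusted p = 1.01e-09), 0.80 for 3 against 2 and 0.40 for 2 against 1. EGLN3, a prolyl hydroxylase that acts on hypoxia-inducible factors, ran from 9.86 to 14.9 CPM (median 12.9) in the libraries numbered 1, from 9.76 to 15.6 (median 12.8) in those numbered 2 and from 13.9 to 20.1 (median 18.3) in those numbered 3. It overlapped slightly between the numbers, and rose in number 3 by 0.43 to 0.82 on the log2 scale over number 1 (fit 0.54 ± 0.05, edgeR adjusted p = 5.45e-07). The glycolysis and hypoxia list was mixed for number 3 against 1, with 9 members higher and 14 lower.

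**Figure D5:**
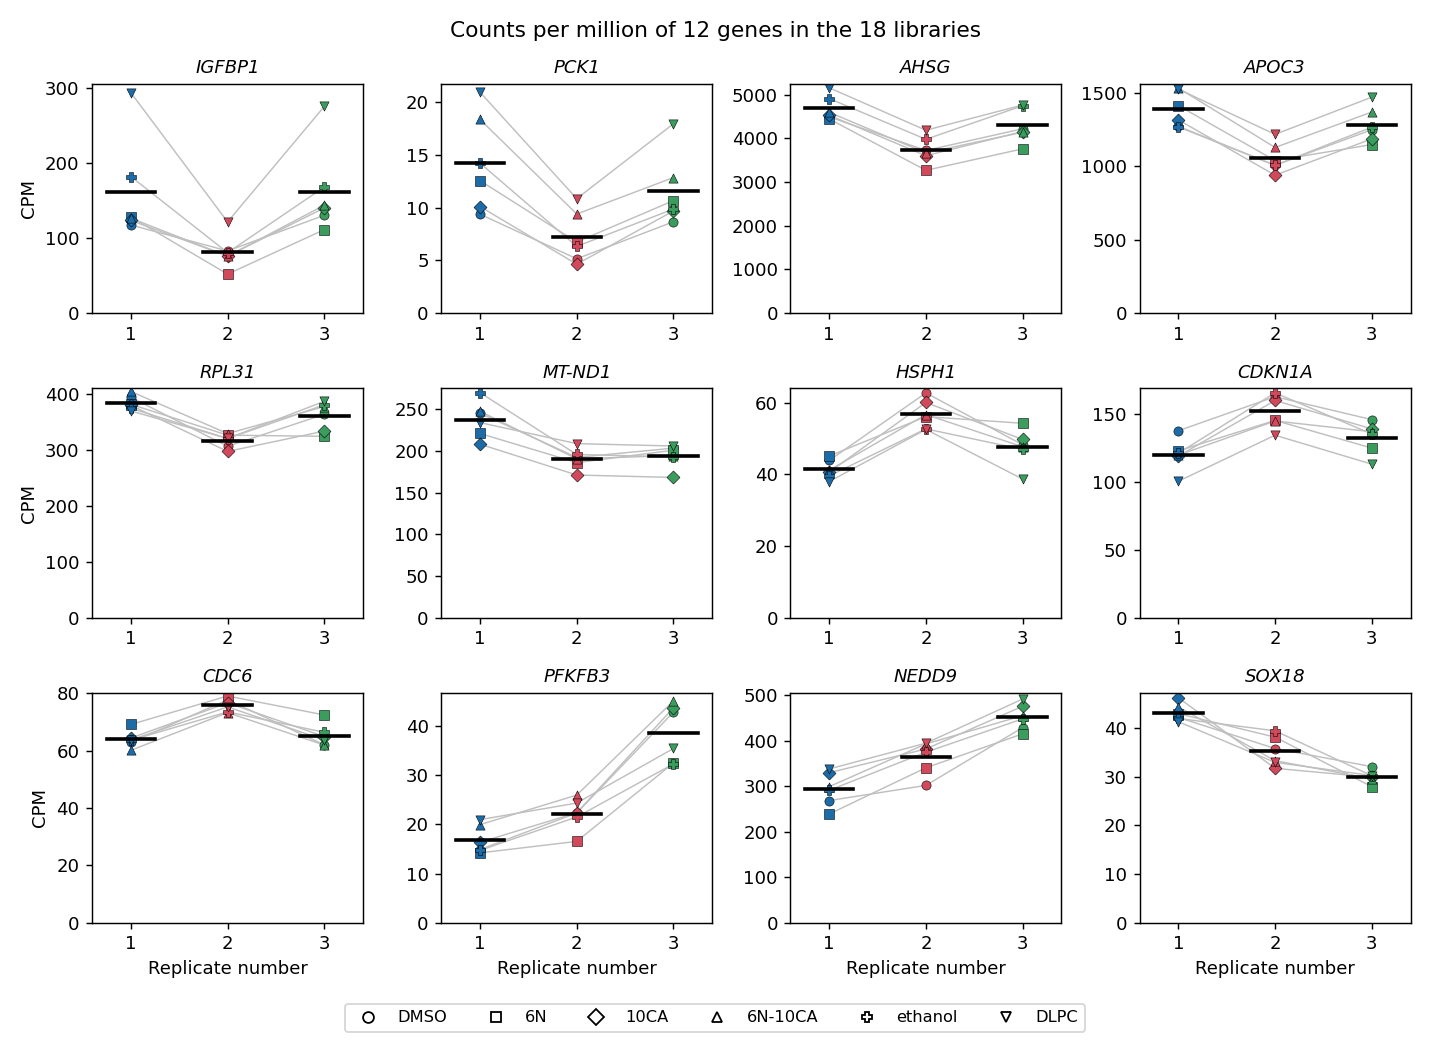
CPM (y axis, from 0) of 12 genes in the 18 libraries by replicate number (x axis), with a grey line joining the libraries of a treatment, shape for the treatment and a black bar at the mean of the 6 libraries. IGFBP1, PCK1, AHSG, APOC3 and RPL31 are lowest in number 2, HSPH1, CDKN1A and CDC6 are highest in number 2, PFKFB3 and NEDD9 are highest in number 3, and MT-ND1 and SOX18 are highest in number 1.

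Secreted liver proteins were lower in number 2. Of the list of hepatocyte identity genes, 32 of 34 were tested, and 19 were lower and 2 higher in number 2 than in number 1 (median -0.11), whereas 18 were higher and 3 lower in number 3 than in number 2 (median 0.11). In number 3, 2 were higher and 11 lower than in number 1, or 2 and 6 with the GC and length correction. AHSG (fetuin-A, an abundant plasma glycoprotein) ran from 4447 to 5162 CPM (median 4565) in the libraries numbered 1, from 3269.6 to 4188 (median 3696) in those numbered 2 and from 3762 to 4766 (median 4190.5) in those numbered 3. Numbers 1 and 2 did not overlap, and the log2 fold change was -0.33 ± 0.02 (edgeR adjusted p = 2.46e-09). TF (transferrin, the plasma iron carrier), at a mean of 19168 CPM, changed by -0.21 ± 0.02 (edgeR adjusted p = 1.50e-08). CEBPA, a transcription factor of the hepatocyte lineage, differed from this order and was lowest in number 3 (log2 fold change -0.30 ± 0.03 against number 1, edgeR adjusted p = 2.29e-07).

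Of 18 lipoprotein genes, all tested, 12 were lower and 2 higher in number 2 than in number 1, with a median of -0.16. APOC3, an inhibitor of triglyceride clearance, ran from 1267 to 1532 CPM (median 1364) in the libraries numbered 1, from 938 to 1216 (median 1022) in those numbered 2 and from 1147 to 1469 (median 1256) in those numbered 3. No library numbered 2 reached number 1, and the log2 fold change was -0.40 ± 0.03 (edgeR adjusted p = 1.14e-08). APOM, a carrier of sphingosine-1-phosphate on lipoproteins, changed by -0.42 ± 0.04 (edgeR adjusted p = 5.50e-08), and APOA1, the main protein of high-density lipoprotein, by -0.19 ± 0.03 (edgeR adjusted p = 6.35e-05). Between number 2 and number 3, 8 lipoprotein genes were higher in number 3 and 0 were lower.

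Coagulation and complement factors followed, with 15 of 31 tested members (of 34) lower and 2 higher in number 2 than in number 1, and 12 higher and 1 lower in number 3 than in number 2. PLG (plasminogen, the precursor of the clot-dissolving protease) ran from 73.6 to 94.3 CPM (median 78.3) in the libraries numbered 1, from 52.1 to 62.7 (median 59.2) in those numbered 2 and from 65.8 to 84.8 (median 76.2) in those numbered 3. Number 2 lay below every library of numbers 1 and 3, with log2 fold changes of -0.44 ± 0.03 (edgeR adjusted p = 1.50e-08) and 0.38 ± 0.03 for number 3 against 2 (edgeR adjusted p = 2.56e-07). Of the acute phase list, 18 of 22 members were tested, and 6 were lower and 0 higher in number 2 than in number 1. In number 3, 5 were lower and 0 higher than in number 1. Against number 2, 5 were higher and 2 lower in number 3, with a median of 0.006, so this list did not set number 2 apart from number 3. CP (ceruloplasmin, the plasma copper carrier) ran from 174 to 261 CPM (median 214) in the libraries numbered 1, from 133 to 198 (median 169) in those numbered 2 and from 170.0 to 251 (median 205) in those numbered 3. These ranges overlap, yet number 2 was the lowest number in each treatment (-0.50 to -0.26 against number 1, fit -0.38 ± 0.03, edgeR adjusted p = 3.00e-09).

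Fatty acid handling showed the same direction in part. Of 21 tested members of the list of fatty acid oxidation and PPAR alpha targets (of 25), 8 were lower and 2 higher in number 2 than in number 1, and 6 were higher and 0 lower in number 3 than in number 2. FABP1, the liver fatty acid binding protein, ran from 683 to 1118 CPM (median 1009) in the libraries numbered 1, from 448 to 887 (median 791) in those numbered 2 and from 568 to 1062 (median 936) in those numbered 3. The ranges overlap widely, and within a treatment number 2 differed from number 1 by a log2 value of -0.61 to -0.24 (fit -0.40 ± 0.03, edgeR adjusted p = 2.18e-08). Fatty acid and triglyceride synthesis was mixed, with 8 of 23 tested members higher and 5 lower in number 2 than in number 1. Cholesterol synthesis and uptake had 1 higher and 6 lower of 25, with a median of 0.00.

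Ribosomal protein genes were lower in number 2 than in number 1, and ribosome biogenesis genes were higher. Of 77 cytosolic ribosomal protein genes, 56 were lower and 0 higher in number 2 than in number 1 (median -0.13), and 26 were higher and 1 lower in number 3 than in number 2. In number 3, 2 were lower and 0 higher than in number 1, or 13 and 0 with the GC and length correction. The 6N libraries departed from this order, with a median deviation of the list from the treatment mean of -0.08 in number 3 and -0.03 in number 2, whereas number 2 was the lowest in the other 5 treatments. RPL31, of the large subunit, ran from 370.1 to 405 CPM (median 381) in the libraries numbered 1, from 298 to 329.6 (median 321) in those numbered 2 and from 325 to 387 (median 371) in those numbered 3. Numbers 1 and 2 did not overlap, with a log2 fold change of -0.28 ± 0.03 (edgeR adjusted p = 4.51e-06). RPS27, of the small subunit, ran from 185 to 209.7 CPM (median 193) in the libraries numbered 1, from 141 to 164 (median 158) in those numbered 2 and from 161 to 202 (median 184) in those numbered 3, again without overlap of numbers 1 and 2 (-0.35 ± 0.04, edgeR adjusted p = 4.96e-06). Ribosomal protein genes have many processed pseudogenes, so single values are uncertain where the authors' counting could split reads among them. In this list 0 of 77 members were called between treatments.

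Ribosome biogenesis genes, which make and process ribosomal RNA, had 24 members higher and 1 lower of 40 tested in number 2 against 1 (median 0.10), and 0 higher and 19 lower in number 3 against 2. With the GC and length correction these counts were 25 and 0, and 0 and 22. NOP2, a methyltransferase of ribosomal RNA, ran from 77.3 to 92.4 CPM (median 87.5) in the libraries numbered 1, from 93.3 to 109 (median 101) in those numbered 2 and from 79.2 to 94.8 (median 87.9) in those numbered 3. Number 2 lay above number 1 without overlap, and the log2 fold change was 0.23 ± 0.03 (edgeR adjusted p = 2.80e-06). POLR1B, a subunit of RNA polymerase I, changed by 0.24 ± 0.03 (edgeR adjusted p = 4.84e-06). The ribosomal proteins of mitochondria were mixed, with 4 higher and 8 lower of 47 in number 2 against 1, or 8 and 7 with the GC and length correction, and 11 called among any numbers (23.4% beside 28.2% of all genes tested).

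Mitochondrial energy genes were higher in number 1 than in number 2. Of 63 nuclear-encoded respiratory chain genes, 29 were lower and 0 higher in number 2 than in number 1 (median -0.08). In number 3, 1 was lower and 0 higher than in number 1. The GC and length correction covered 49 of the 63, of which 5 were lower and 0 higher in number 3 than in number 1. Without the correction, 3 of the 63 were higher and 0 lower in number 3 than in number 2 (beside 6.46% of all genes tested higher). COX5B, a subunit of cytochrome c oxidase, changed by -0.23 ± 0.03 (edgeR adjusted p = 8.10e-05). Of 13 mRNAs of the mitochondrial genome, 7 were lower and 0 higher in number 2 than in number 1 (median -0.13), and 5 were lower and 0 higher in number 3 than in number 1 (median -0.11). With the GC and length correction the counts of lower mRNAs were 8 and 9. Between number 3 and number 2, 0 of the 13 were called. In the 6N and DLPC libraries this list was not highest in number 1. Its median deviation from the treatment mean in numbers 1, 2 and 3 was -0.02, -0.05 and 0.05 in 6N. In DLPC it was 0.0009, 0.03 and -0.05. MT-ND1, a subunit of respiratory complex I, ran from 208 to 269.9 CPM (median 239.7) in the libraries numbered 1, from 171 to 209 (median 192) in those numbered 2 and from 168 to 206 (median 198) in those numbered 3. Number 1 lay above number 3 without overlap, and the highest library numbered 2 lay just above the lowest numbered 1 (log2 fold changes -0.32 ± 0.03 and -0.29 ± 0.03, edgeR adjusted p = 1.32e-06 and 1.14e-05).

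DNA replication genes were higher in number 2. Of 42 members, all tested, 24 were higher and 1 lower than in number 1 (median 0.10), and 0 were higher and 19 lower in number 3 than in number 2. Number 3 against 1 gave 1 higher and 2 lower. CDC6, which loads the replicative helicase onto origins, ran from 60.1 to 69.2 CPM (median 63.7) in the libraries numbered 1, from 73.3 to 79.1 (median 76) in those numbered 2 and from 62 to 72.5 (median 64.3) in those numbered 3. Every library numbered 2 lay above every library of both other numbers, with log2 fold changes of 0.25 ± 0.03 against number 1 (edgeR adjusted p = 1.78e-06) and -0.22 ± 0.03 for number 3 against 2 (edgeR adjusted p = 1.92e-05). MCM4, a subunit of that helicase, ran from 271 to 303 CPM (median 280.2) in the libraries numbered 1, from 302 to 337 (median 312) in those numbered 2 and from 271 to 299.8 (median 281) in those numbered 3. Its lowest library numbered 2 and highest library numbered 1 nearly coincide, and the log2 fold change was 0.16 ± 0.02 (edgeR adjusted p = 1.81e-05).

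Mitotic genes depended on the GC correction. Without it, 14 of 40 were higher and 3 lower in number 2 than in number 1 (median 0.06), and with it 7 were higher and 6 lower (median 0.00). AURKA, a spindle pole kinase, was higher in number 2 (0.16 ± 0.02, edgeR adjusted p = 2.36e-05), whereas AURKB, the kinase of the chromosomal passenger complex, was lower (-0.12 ± 0.03, edgeR adjusted p = 0.00176). Replication-dependent histones, whose mRNAs are made in S phase, did not follow the replication genes. Of 27 members 20 were tested, and 0 were higher and 7 lower in number 2 than in number 1 (median -0.17).

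HIST1H4C, a histone H4 gene, ran from 746 to 867 CPM (median 783) in the libraries numbered 1, from 570.4 to 688 (median 624) in those numbered 2 and from 673 to 802 (median 746) in those numbered 3. Numbers 1 and 2 did not overlap, and the log2 fold change was -0.36 ± 0.04 (edgeR adjusted p = 2.76e-06). Histone genes are close copies of each other, so their counts are uncertain where reads could be shared. Most histone mRNAs also lack a poly(A) tail, and how the amplified cDNA was primed is not given in the sources used here.

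Chaperone genes of the heat shock response were higher in number 2. All 24 members were tested, 16 were higher and 2 lower than in number 1 (median 0.12), and 1 was higher and 11 lower in number 3 than in number 2. In number 3, 9 were higher and 0 lower than in number 1, or 8 and 1 with the GC and length correction. HSPH1, a nucleotide exchange factor of the Hsp70 system (chromosome 13, 31134974 to 31162388), ran from 38 to 45.1 CPM (median 40.9) in the libraries numbered 1, from 52.6 to 62.8 (median 56.4) in those numbered 2 and from 38.7 to 54.3 (median 48) in those numbered 3. Numbers 1 and 2 did not overlap, with a log2 fold change of 0.46 ± 0.04 (edgeR adjusted p = 1.23e-07). HSP90AA1, the inducible Hsp90, ran from 566 to 669.5 CPM (median 593) in the libraries numbered 1, from 658 to 740.2 (median 685) in those numbered 2 and from 544 to 613 (median 576) in those numbered 3. It was higher in number 2 than in number 3 without overlap (log2 fold change -0.27 ± 0.02 for 3 against 2, edgeR adjusted p = 8.53e-08).

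HSPA8, the constitutive Hsp70, ran from 292 to 469 CPM (median 382) in the libraries numbered 1, from 458 to 635 (median 516) in those numbered 2 and from 392 to 568 (median 528) in those numbered 3. Its ranges overlap, and numbers 2 and 3 were both higher than number 1 (log2 fold changes 0.52 ± 0.06 and 0.44 ± 0.06, edgeR adjusted p = 1.49e-06 and 3.74e-05). CHORDC1, an Hsp90 co-chaperone, ran from 15 to 21.5 CPM (median 17) in the libraries numbered 1, from 20.7 to 26.9 (median 23) in those numbered 2 and from 16 to 23.2 (median 21.5) in those numbered 3. It was higher in number 2 than in number 1 in each of the 6 treatments (0.33 to 0.48 on the log2 scale, fit 0.42 ± 0.05, edgeR adjusted p = 2.34e-06).

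Promoters of 2 of these genes are printed because the heat shock list moved together and because their windows hold the core of the element that heat shock factor is known to bind. They are the RefSeq promoters on GRCh38.p14, from 250 bases before to 50 after the gene's start, and capitals mark each match to GAANNTTC, which reads the same on both strands.
HSPA8, chr11:123062087-123062386, minus strand: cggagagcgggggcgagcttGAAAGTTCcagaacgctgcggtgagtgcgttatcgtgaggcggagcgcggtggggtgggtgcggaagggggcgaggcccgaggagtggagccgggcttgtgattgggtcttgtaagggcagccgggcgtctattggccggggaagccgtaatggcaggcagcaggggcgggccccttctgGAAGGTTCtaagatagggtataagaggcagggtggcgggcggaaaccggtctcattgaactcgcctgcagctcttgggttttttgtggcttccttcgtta
CHORDC1, chr11:90223000-90223299, minus strand: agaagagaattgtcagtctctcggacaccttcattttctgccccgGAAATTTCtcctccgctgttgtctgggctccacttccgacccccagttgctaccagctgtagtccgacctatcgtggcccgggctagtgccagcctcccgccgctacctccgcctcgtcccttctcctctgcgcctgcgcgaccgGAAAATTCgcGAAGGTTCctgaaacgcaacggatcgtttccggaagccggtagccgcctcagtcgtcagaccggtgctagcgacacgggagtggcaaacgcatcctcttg
The HSPA8 window held 2 matches and the CHORDC1 window held 3, and the windows of HSPH1 and HSP90AA1 held 0. Each gene was searched only in the window at its listed start, so any other start of these genes was not covered. Of 21 heat shock members with a promoter in the table, 8 (38.1%) held a match, beside 2377 of all 35116 promoters of the same length (6.77%). Of the 18 with a promoter that were called among any numbers, 6 held a match. A match is a description of the letters and not of binding.

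Targets of p53, the damage and stress sensor, had the highest share of called members of the 41 lists. Of 25 members, all tested, 22 were called among any numbers (88.0% beside 28.2%), 19 were higher and 1 lower in number 2 than in number 1 (median 0.20), and 8 were higher and 3 lower in number 3 than in number 1. With the GC and length correction these counts were 16 and 1, and 8 and 0. CDKN1A, the p21 inhibitor of cyclin-dependent kinases (chromosome 6, 36676460 to 36687339), ran from 101 to 138 CPM (median 120.4) in the libraries numbered 1, from 134 to 166 (median 153) in those numbered 2 and from 113 to 146 (median 136) in those numbered 3. These ranges touch, and within treatments number 2 was higher than number 1 by 0.24 to 0.45 on the log2 scale (fit 0.34 ± 0.03, edgeR adjusted p = 1.47e-07).

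TIGAR, a fructose bisphosphatase that diverts sugar from glycolysis, ran from 9.35 to 12.7 CPM (median 11.1) in the libraries numbered 1, from 13.2 to 16.6 (median 15.5) in those numbered 2 and from 11 to 12.7 (median 11.9) in those numbered 3. Number 2 lay above both other numbers without overlap (0.47 ± 0.05 against number 1, edgeR adjusted p = 1.42e-06). MDM2, the ubiquitin ligase that degrades p53, changed by 0.30 ± 0.03 (edgeR adjusted p = 7.17e-07). GDF15, a stress hormone of the TGF-beta family, ran from 121 to 151 CPM (median 136) in the libraries numbered 1, from 151 to 166 (median 164) in those numbered 2 and from 165 to 202 (median 179.9) in those numbered 3. It was highest in number 3, and number 1 lay below both other numbers without overlap (log2 fold change 0.42 ± 0.03 for 3 against 1, edgeR adjusted p = 4.52e-08).

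In number 2, further stress lists had more members higher than lower against number 1. Of 31 proteasome genes, all tested, 10 were higher and 0 lower than in number 1, and 0 were higher and 13 lower in number 3 than in number 2. The unfolded protein response had 13 higher and 3 lower of 25 in number 2 against 1. Its sensor and chaperone HSPA5 (BiP) changed by 0.15 ± 0.02 (edgeR adjusted p = 3.32e-05), whereas DNAJB9, a co-chaperone of the endoplasmic reticulum, was highest in number 3 (0.48 ± 0.06 against number 1, edgeR adjusted p = 1.14e-05). NRF2 targets, which answer oxidative stress, had 12 higher and 1 lower of 26 tested (of 27) in number 2 against 1 and 0 higher and 10 lower in number 3 against 2. AKR1B10, an aldo-keto reductase of that list, changed by 0.34 ± 0.04 and by -0.35 ± 0.04 in these comparisons (edgeR adjusted p = 7.28e-06 and 1.25e-05). In 6N the median deviation of the NRF2 list from the treatment mean was 0.021 in number 1 and 0.015 in number 2. In ethanol that of the unfolded protein response was 0.0087 in number 2 and 0.011 in number 3. Number 2 was thus not the highest in every treatment.

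Zinc-responsive genes separated number 3 from number 2. Of 14 metallothionein and zinc genes tested (of 15), 6 were lower and 2 higher in number 3 than in number 2, with a median of -0.21. MT1X, a metal-binding metallothionein, ran from 29.2 to 48.1 CPM (median 43.2) in the libraries numbered 1, from 39.1 to 59 (median 52.1) in those numbered 2 and from 30.5 to 44.9 (median 41.7) in those numbered 3. Its ranges overlap, and number 3 was lower than number 2 in each treatment (-0.55 to -0.27, fit -0.36 ± 0.04, edgeR adjusted p = 3.94e-06). SLC30A1, the zinc exporter of the cell surface, ran from 67.9 to 85.4 CPM (median 77.4) in the libraries numbered 1, from 78.1 to 93.7 (median 85.1) in those numbered 2 and from 62.8 to 77.1 (median 64.1) in those numbered 3. Number 3 lay below number 2 without overlap (log2 fold change -0.36 ± 0.04, edgeR adjusted p = 1.24e-05). SLC39A4, a zinc importer, was lower in number 2 than in number 1 (-0.28 ± 0.02, edgeR adjusted p = 1.05e-07). Metallothionein genes share sequence, and their single values are uncertain for that reason.

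Immediate early genes, which answer growth factors and serum within minutes, were higher in number 3. Of 28 tested members (of 34), 10 were higher and 1 lower than in number 1 (median 0.12), and 12 were higher and 0 lower than in number 2 (median 0.13). With the GC and length correction these counts were the same. DUSP6, a phosphatase that restrains ERK, ran from 59.3 to 73.9 CPM (median 67.2) in the libraries numbered 1, from 51.7 to 71.1 (median 61.3) in those numbered 2 and from 72.2 to 103 (median 88.5) in those numbered 3. It was higher in number 3 than in number 2 without overlap (log2 fold change 0.52 ± 0.04, edgeR adjusted p = 7.49e-08). KLF10, a TGF-beta early gene with the smallest p of the list, ran from 61.4 to 68.6 CPM (median 64.2) in the libraries numbered 1, from 44.9 to 53 (median 48.6) in those numbered 2 and from 44.6 to 52.8 (median 50.1) in those numbered 3. Number 1 lay above both other numbers without overlap (-0.40 ± 0.03 and -0.38 ± 0.03, edgeR adjusted p = 7.72e-09 and 4.53e-08).

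MAFF, FAM13A and NEDD9 were each highest in number 3. MAFF, a small leucine zipper factor of stress and cytokine responses, ran from 8.08 to 9.96 CPM (median 8.18) in the libraries numbered 1, from 6.81 to 9.86 (median 8.45) in those numbered 2 and from 11.7 to 16 (median 14.4) in those numbered 3. FAM13A ran from 7.03 to 10.6 CPM (median 7.55) in the libraries numbered 1, from 7.08 to 11.5 (median 7.84) in those numbered 2 and from 12.5 to 16.8 (median 14.5) in those numbered 3. NEDD9, a scaffold of focal adhesion signalling (chromosome 6, 11183298 to 11382348), ran from 239 to 338 CPM (median 295) in the libraries numbered 1, from 302 to 394 (median 378) in those numbered 2 and from 415 to 491 (median 451) in those numbered 3. In all 3 genes every library numbered 3 lay above every library of both other numbers. The log2 fold changes against number 1 were 0.71 ± 0.06 for MAFF, 0.87 ± 0.06 for FAM13A and 0.63 ± 0.04 for NEDD9 (edgeR adjusted p = 9.71e-08, 2.17e-08 and 1.01e-09).

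ERRFI1, a feedback inhibitor of the EGF receptor, ran from 88.9 to 127 CPM (median 109) in the libraries numbered 1, from 108 to 134 (median 131) in those numbered 2 and from 132 to 182 (median 161) in those numbered 3. Number 3 lay above number 1 without overlap, and number 2 was between them (0.53 ± 0.03 for 3 against 1, edgeR adjusted p = 1.89e-09). The secreted factors CCL20 and CTGF were lowest in number 2. CCL20, a chemokine, ran from 51.1 to 65.5 CPM (median 55.4) in the libraries numbered 1, from 38.5 to 51 (median 45.9) in those numbered 2 and from 54.5 to 89.3 (median 76.1) in those numbered 3. CTGF, a matrix protein induced by YAP and TGF-beta, ran from 325 to 493 CPM (median 336) in the libraries numbered 1, from 247 to 319 (median 287) in those numbered 2 and from 371 to 529 (median 430.0) in those numbered 3. For both genes number 2 lay below number 1 and number 3 without overlap, with log2 fold changes for 3 against 2 of 0.71 ± 0.05 and 0.62 ± 0.04 (edgeR adjusted p = 1.53e-08 and 1.53e-08).

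The list of SRF and YAP targets as a whole was mixed, with 5 higher and 6 lower of 30 tested (of 33) in number 2 against 1. With the GC and length correction the counts were 7 and 3. Of all genes tested, 13.3% were higher and 12.9% lower without the correction. In number 3, 3 were higher and 2 lower than in number 2. AMOTL2 and AJUBA, both of that list, were higher in numbers 2 and 3 than in number 1 (for 3 against 1, 0.37 ± 0.04 and 0.36 ± 0.03, edgeR adjusted p = 6.01e-07 and 5.45e-07).

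Targets of ATF4, the amino acid response factor, had more members higher than lower in numbers 2 and 3. Of 32 ATF4 targets, all tested, 12 were higher and 4 lower in number 2 than in number 1, and 10 were higher and 1 lower in number 3 than in number 1. With the GC and length correction the second pair became 6 and 1. SLC38A2, a neutral amino acid transporter, ran from 228 to 291 CPM (median 262) in the libraries numbered 1, from 261 to 355 (median 312) in those numbered 2 and from 347 to 391 (median 372) in those numbered 3. Number 3 lay above number 1 without overlap (0.50 ± 0.05, edgeR adjusted p = 5.45e-07). STC2, a secreted stress glycoprotein, changed by 0.37 ± 0.03 (edgeR adjusted p = 2.17e-08). ATF4 itself, the transcription factor of the response, changed by 0.11 ± 0.02 for number 2 against 1 (edgeR adjusted p = 7.27e-04). For number 3 against 1 it differed by -0.04 ± 0.02 and did not pass the test (edgeR adjusted p = 0.322).

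A smaller set was highest in number 1 and lowest in number 3. SOX18, a transcription factor known from endothelium, ran from 41.4 to 46.3 CPM (median 42.6) in the libraries numbered 1, from 31.8 to 39.5 (median 34.6) in those numbered 2 and from 28 to 32.1 (median 30.1) in those numbered 3. Number 1 lay above both other numbers without overlap (-0.53 ± 0.05 for 3 against 1, edgeR adjusted p = 5.55e-07). NR1D1 (REV-ERB alpha, a repressor of the circadian clock) ran from 9.85 to 12.4 CPM (median 11.5) in the libraries numbered 1, from 8.81 to 11.3 (median 9.14) in those numbered 2 and from 7.22 to 8.96 (median 8.05) in those numbered 3. Numbers 1 and 3 did not overlap (-0.49 ± 0.08, edgeR adjusted p = 4.42e-04). The clock list as a whole had 8 of 21 tested members called among any numbers (38.1% beside 28.2%). DBP, an output gene of the clock, was lowest in number 2 (-0.42 ± 0.06 against number 1, edgeR adjusted p = 3.03e-05), and RORA, an activator in the clock loop, was highest in number 3 (0.45 ± 0.06 against number 1, edgeR adjusted p = 1.35e-04).

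Wnt and beta-catenin targets, of interest because HepG2 cells carry an activated beta-catenin, had 17 of 20 members called among any numbers (85% beside 28.2%). Of these, 9 were lower and 3 higher in number 2 than in number 1, and 6 were lower and 1 higher in number 3 than in number 1. NOTUM, a secreted enzyme that inactivates Wnt, ran from 499 to 544 CPM (median 519) in the libraries numbered 1, from 397 to 474 (median 428) in those numbered 2 and from 443 to 548 (median 496) in those numbered 3. SP5, a transcription factor induced by Wnt, ran from 299 to 331 CPM (median 323) in the libraries numbered 1, from 228 to 272 (median 266) in those numbered 2 and from 264 to 305 (median 286) in those numbered 3. For both genes numbers 1 and 2 did not overlap (log2 fold changes -0.27 ± 0.03 and -0.32 ± 0.03, edgeR adjusted p = 1.10e-06 and 1.45e-06). AXIN2, a feedback inhibitor of the pathway, was lower in numbers 2 and 3 than in number 1 (-0.20 ± 0.03 and -0.19 ± 0.03, edgeR adjusted p = 5.64e-05 and 4.72e-04).

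LRH-1 is known to drive bile acid genes in liver. Of the list of bile acid synthesis and transport, 23 of 28 members were tested and 8 were called among any numbers (34.8% beside 28.2%). NR0B2 (SHP, a repressor that is itself an LRH-1 target) was lowest in number 2 and highest in number 3, with log2 fold changes of -0.21 ± 0.04 and 0.21 ± 0.04 against number 1 and 0.42 ± 0.04 for 3 against 2 (edgeR adjusted p = 0.00107, 0.0036 and 1.78e-06). CYP7A1, which controls the rate of the classic bile acid pathway, was lower in numbers 2 and 3 than in number 1 (-0.18 ± 0.05 and -0.23 ± 0.05, edgeR adjusted p = 0.00681 and 0.003).

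Several further genes and lists were called. RSRP1, a protein rich in arginine and serine, ran from 10.6 to 14.2 CPM (median 13.3) in the libraries numbered 1, from 16.9 to 20.5 (median 19.2) in those numbered 2 and from 19.2 to 23.4 (median 20.8) in those numbered 3. Number 1 lay below both other numbers without overlap (log2 fold changes 0.56 ± 0.06 and 0.71 ± 0.06, edgeR adjusted p = 8.45e-07 and 7.25e-08). Of 40 splicing factors, all tested, 12 were higher and 3 lower in number 2 than in number 1, or 8 and 4 with the GC and length correction. SRSF5, a splicing factor of the SR family, was highest in number 1 and lowest in number 3 (-0.27 ± 0.03 for 3 against 1, edgeR adjusted p = 5.45e-07), whereas SRSF2 was highest in number 2 (0.22 ± 0.02 against number 1, edgeR adjusted p = 1.28e-06).

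TMCC1, a membrane protein of the endoplasmic reticulum, ran from 57.4 to 89.8 CPM (median 78.2) in the libraries numbered 1, from 68.5 to 104 (median 79.9) in those numbered 2 and from 95.8 to 137 (median 124) in those numbered 3. Number 3 lay above number 1 without overlap (0.68 ± 0.05, edgeR adjusted p = 2.17e-08). TNS1 (tensin, which links integrins to actin) ran from 18.3 to 36.3 CPM (median 20.5) in the libraries numbered 1, from 11.7 to 21.2 (median 13.5) in those numbered 2 and from 13.7 to 22.7 (median 14.7) in those numbered 3. Its ranges overlap, and in each treatment number 1 was the highest of the 3 (-0.90 to -0.60 for 2 against 1, fit -0.70 ± 0.06, edgeR adjusted p = 8.81e-08). Iron genes were mixed, with 5 of 20 tested members (of 22) higher and 4 lower in number 2 than in number 1. The shares of all genes tested were 13.3% higher and 12.9% lower. TFR2, a sensor of transferrin in hepatocytes, was lowest in number 2 (-0.30 ± 0.02 against number 1, edgeR adjusted p = 6.61e-09).

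Interferon-stimulated genes had 9 of 28 tested members (of 32) lower and 2 higher in number 2 than in number 1, beside 12.9% lower and 13.3% higher of all genes tested. In DLPC the median deviation of this list from the treatment mean went the other way, at -0.02 in number 1 and 0.05 in number 2. In every other treatment number 2 lay below number 1, least so in DMSO (0.02 and -0.005) and ethanol (0.02 and -0.008). Autophagy and lysosome genes went both ways, with 8 higher and 8 lower of 33 in number 2 against 1. SQSTM1 (p62, an autophagy receptor and also an NRF2 target) was higher in number 2 (0.15 ± 0.02, edgeR adjusted p = 4.37e-05), and CTSB, a lysosomal protease, was lower (-0.15 ± 0.02, edgeR adjusted p = 3.58e-05). Amino acid breakdown and the urea cycle had 26 of 28 members tested, with 5 lower and 2 higher in number 2 than in number 1. Of all genes tested, 12.9% were lower and 13.3% higher in this comparison. In that list ARG1 (arginase, the last step of the urea cycle) was at -0.40 ± 0.06 (edgeR adjusted p = 4.17e-05).

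In some lists the share called was below that of all genes tested. Xenobiotic metabolism had 3 of 22 tested members called among any numbers (13.6%), and zinc finger proteins of the KRAB class had 8 of 69 (11.6%), both beside 28.2% of all genes tested. CYP1A1, the enzyme induced through the aryl hydrocarbon receptor, was 1 of the 3 (0.52 ± 0.10 for number 2 against 1, edgeR adjusted p = 8.77e-04). Claudins and tight junction genes had 5 of 19 called (26.3%) and extracellular matrix and adhesion genes had 9 of 34 (26.5%). In contrast, of 9 tested markers of stromal, endothelial and blood cells 4 were called (44.4%, above the 28.2% of all genes tested). Among them were ACTA2 (smooth muscle actin, -0.13 ± 0.03 for number 3 against 1, edgeR adjusted p = 0.00274) and LYZ (-0.16 ± 0.03 for 2 against 1, edgeR adjusted p = 9.73e-04). Their part in the other results was not tested.

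Replicate number and treatment were both read from many genes. A treatment difference was called for 3149 genes (21.3%) with the replicate number in the fit and for 774 without it. Of the 4171 genes called among the numbers, 1513 were also called between treatments and 2658 were not, while 1636 were called between treatments alone and 8990 in neither test. Over 10686 genes above 5 CPM, the median share of a gene's variance that went with treatment was 39.1%, where 29.4% is its share of the degrees of freedom, and that with replicate number was 22.4%, where 11.8% is its share. The replicate number took the larger share in 3638 of these genes (34%). The list of cytosolic ribosomal proteins had 54 of 77 members called among numbers and 0 between treatments, and the respiratory chain list had 25 and 3 of 63.

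Whether the effect of the replicate number differed was tested for vehicles against ligands and for the arms, not for every pair of treatments. A test of whether the numbers differ otherwise in vehicles than in ligands called 1 gene (0.00676%), with 786 genes (5.31%) at an unadjusted p under 0.05. With DESeq2 3 genes were called, and without ethanol replicate 3 the count was 0. The gene was XXbac-BPG116M5.17, an unmatched clone-based locus at a mean of 6.50 CPM whose counts are uncertain where it overlaps other genes. The same test between the small molecule and phospholipid arms called 0 genes (0%) with edgeR, with 1414 genes (9.56%) at an unadjusted p under 0.05. DESeq2 called 35, and without DMSO replicate 1 edgeR called 7.

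Of the 48 genes whose library values are given here, 54 differences fell under the rule for named genes. None of these 54 lost its call when any 1 library was left out, under other scaling factors, with DESeq2, with limma-voom or with the GC and length correction. With the 6 phospholipid arm libraries alone 1 was lost, and with the 6 vehicle libraries alone 7 were lost. These genes were picked from the same data for a small p or a large change, so few losses follow from the choice. Of all 213 called differences of named genes, 68 kept their call under every setting.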

How the data were processed

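Per the labels, RNA of HepG2 cells was sequenced in 18 libraries, as single reads of 100 bases from amplified cDNA. The authors deposited raw read counts, as whole numbers for 35238 gene symbols in 1 table. GRCh38 and DESeq2 are named, per the submitters' processing notes; which aligner, counter and annotation were used is not given in the sources used here. The table holds 28 symbols turned into dates, 22 of them tested and never named.

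Counts were fitted with edgeR 4.0.16 in R 4.3.3 (glmQLFit, glmQLFTest, TMM factors), with treatment and replicate number as factors, after filterByExpr by treatment (minimum count 10), which kept 14797 genes and 99.96% of counts. P-values were two-sided and adjusted by Benjamini-Hochberg, with a threshold of 0.05. Library values are CPM on TMM-scaled totals; marker levels in the check of the label are CPM on the plain total. Intervals are 95% and, like all errors, do not make amplified reads independent molecules. A floor of 3 counts applies to counting error only. Positions, GC content and length come from GENCODE 29 on GRCh38, matched by symbol for 93.8% of tested genes. The scripts were tested on simulated data.

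Named genes were, per comparison, the 10 largest rises and 10 largest falls among called genes of mean 1 CPM or more with the same sign in 6 treatments, and of each list the 4 members with the smallest p of the test of any number. The members, lists (1300 genes, 1190 tested) and rules were chosen with earlier results of these data known. A list of nuclear-retained RNAs had no match and was not analysed here. The alternatives were DESeq2 1.42.0, limma-voom (limma 3.58.1), other scaling factors and filters, subsets of treatments, no treatment term, no replicate block and each library left out; the GC and length correction was added after seeing the data.

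The shared numbers were checked for pairing: 43 of 45 pairs of same-numbered libraries had deviations correlated over 0.1, the others being 6N with DMSO replicate 2 and ethanol with 6N replicate 3, so that the numbers are treated as shared numbers only. Every pair of libraries differed by more than sampling noise (chi-square per gene 4.21 to 37.5), and none was counted as a copy.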

Additional observations from a re-analysis of the deposited data

Results flagged for a closer look

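Each of 282 sets of 6 libraries with the same number was checked for a library far from the others in the treatment-centred level of a gene or list or in a library measure, and 15 held one. Chance flags about 1 in 20 such sets. The library 6N replicate 1 stood above the other libraries numbered 1 in GAST (0.725 above its treatment mean on the log2 scale), AHSG (0.228) and the acute phase list (0.101), and below them in TXNIP (0.176). The library 6N replicate 2 stood apart in RPL31 (-0.0719), in the cytosolic ribosomal protein list (-0.0258) and in the respiratory chain list (0.00275), each time above the other libraries numbered 2. The library 6N replicate 3 stood below the other libraries numbered 3 in GAST (-0.096), MT1X (-0.268) and HIST1H4C (-0.133), and above them in the bile acid list (0.0288). In EGLN3, DMSO replicate 1 stood below the others with its number (-0.309) and DMSO replicate 3 above them (0.516). Among the libraries numbered 3, the cholesterol list stood highest in 6N-10CA replicate 3 (0.0292). In RSRP1, 10CA replicate 2 stood above the other libraries numbered 2 (0.306). As a library is set against the mean of its own treatment, these values within 1 treatment depend on each other.

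XXbac-BPG116M5.17 differed between vehicles and ligands in the effect of the replicate number (edgeR adjusted p of the interaction = 0.001701). In number 3 it was at 1.37 CPM with DMSO and 0.395 CPM with ethanol, and at 6.29, 8.12, 8.82 and 9.64 CPM with 6N, 10CA, 6N-10CA and DLPC. In number 1 the vehicles were at 12.3 and 17.4 CPM and the ligands at 5.29, 12.9, 3.46 and 7.88 CPM. Its difference between number 2 and number 1 lost its call with DESeq2 and with limma-voom.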

How the results depend on the processing

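The counts of genes called among replicate numbers kept within 1.5 times under DESeq2, limma-voom, other scaling factors, other filters and the GC and length correction. Without the treatment term the counts were 2161 for number 2 against 1, 430 for 3 against 1, 302 for 3 against 2 and 1905 for any number. With the vehicles alone they were 171, 53, 84 and 178, and with the phospholipid arm alone 1149, 162, 831 and 1249. For 3 against 2, the ligands alone gave 881, the small molecule arm alone 1023, all but 10CA 1041 and all but DLPC 1202. For 3 against 1, all but 10CA gave 761 and all but 6N-10CA 733, and for any number all but 10CA gave 2700. These subsets hold fewer libraries. With each library left out, the counts ran from 3028 to 4022 (2 against 1), 807 to 1514 (3 against 1), 1242 to 1835 (3 against 2), 3303 to 4168 (any number) and 2162 to 3261 (any treatment). With no replicate block in the fit, the treatment test called 774 genes in place of 3149, and the block was the only change. The interaction with vehicle or ligand called 3 genes with DESeq2, 157 with no filter on low counts and 0 to 2 with 1 library left out; the interaction with arm called 35, 320 and 0 to 7. The cause was not tested. No called difference of a named gene changed sign under any of these settings. Among all genes called for number 2 against 1, 3831 of 3863 kept their sign with the vehicles alone, 3825 of 3865 with the phospholipid arm alone and 3718 of 3740 with the GC and length correction. Of 213 called differences of named genes, 136 lost their call with the vehicles alone, 74 with the phospholipid arm alone, 61 without the treatment term, 9 with the GC and length correction and 0 to 7 with 1 library left out. Genes of low counts, at a mean near 1 CPM, lost their calls most readily, among them C3orf52 and CABYR.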
